A study of Mus musculus with 2 samples.

Results

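The strongest POU5F1-bound regions supported by both replicates of a mouse embryonic stem cell line are described here. They were chosen by the authors' deposited peak signal. A peak of the whole-series mm9 list was taken when its signal was at least 10 and it overlapped, by at least 1 bp, a peak of the replicate 1 list and a peak of the replicate 2 list. Of 5515 whole-series peaks, 375 (6.8%) met this rule. They are called strong shared peaks below, and the 5140 peaks that did not meet it are called the other peaks.

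POU5F1 occupancy was measured by chromatin immunoprecipitation with sequencing (ChIP-seq), in which DNA bound by a protein is recovered with an antibody and sequenced. The cells were E14TG2a.4, an established male embryonic stem cell line of strain 129/Ola, and the antibody was against POU5F1. The labels give 1 group of 2 biological replicates, with no treatment, no second genotype and no second line. The control experiment they name was not analysed here.

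POU5F1, also called OCT4, is a POU-domain transcription factor needed to keep embryonic stem cells pluripotent. Its DNA-binding region has 2 parts joined by a linker, a POU-specific domain and a POU homeodomain, which each read a short stretch of DNA. Bound as a monomer it reads an octamer. With SOX2 it reads a composite element in which a SOX site lies directly beside the octamer. As a pair of POU proteins it can read the MORE or the PORE, 2 palindromic arrangements of octamer parts.

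The elements searched were the octamer ATGCAAAT with no mismatch, the composite (CATTGT, 1 free base, then ATGCAAAT) with up to 2 mismatches and the same composite with 4 free bases. The MORE was ATGCAT written 2 times in a row, with up to 1 mismatch. The PORE was ATTTG, 2 free bases, then ATGCAAAT, with up to 2 mismatches. Each was searched on both strands within 100 bp of the peak centre. The composite and the PORE share the octamer, so 1 stretch of DNA can count for several of them. A composite with no mismatch also meets the PORE pattern with 2 mismatches, so matches to the PORE include composites. Sequences were read from the mm9 genome and run 5′ to 3′ in the orientation of the element, which stands in capitals with 20 bases on each side. Positions in an element are counted from 1 at its 5′ end, with the searched letter first and the letter in the genome last.

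The strongest peaks holding the MORE are shown because several of them carried the same 12 bases, with the change C4A. The MORE reads the same on both strands, and the strand with the change in its first copy was printed. They lie at chr6:125165210-125165261 (Vamp1, plus strand), chr5:144844561-144844612 (Lmtk2, plus), chr15:84452598-84452649 (Prr5, plus) and chr12:112381389-112381440 (Traf3, plus). The site in the Lemd1 intron (chr1:134118932-134118983, plus), whose nearest protein-coding start is that of Gm10188, had no mismatch and was added after its values had been seen. The region of Grp (signal 27.6), stronger than those of Prr5 and Traf3, also held the MORE with C4A, and its sequence is not printed here.
Vamp1: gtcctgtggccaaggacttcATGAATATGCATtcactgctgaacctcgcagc
Lmtk2: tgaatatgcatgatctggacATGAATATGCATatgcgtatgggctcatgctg
Prr5: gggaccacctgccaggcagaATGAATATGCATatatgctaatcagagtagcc
Traf3: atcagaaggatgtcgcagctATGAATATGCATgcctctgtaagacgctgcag
Gm10188: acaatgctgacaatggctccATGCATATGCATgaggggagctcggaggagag

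The composite is shown at strong peaks and at Sox2. The stretches lie at chr14:86795979-86796033 (Diap3, minus), chr15:84452634-84452688 (Prr5, minus), chr7:126136194-126136248 (Gprc5b, plus), chr15:55099786-55099840 (Col14a1, plus), chr7:147246982-147247036 (Msx3, plus) and chr3:34552951-34553005 (Sox2, plus). The composite differed from the searched letters by A2T and T6C at Diap3, by C1G at Prr5, by G5T and T6A at Gprc5b, by A13C at Col14a1, by A2T and A13C at Msx3 and by A13T at Sox2. The Ebf1 site (chr11:44655364-44655418, plus), 1 of 3 with no mismatch, was added after its values had been seen.
Diap3: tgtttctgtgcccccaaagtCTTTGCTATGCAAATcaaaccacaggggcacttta
Prr5: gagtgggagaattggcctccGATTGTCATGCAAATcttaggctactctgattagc
Gprc5b: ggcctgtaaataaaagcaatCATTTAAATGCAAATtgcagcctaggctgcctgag
Col14a1: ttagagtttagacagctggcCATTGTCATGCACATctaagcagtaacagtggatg
Msx3: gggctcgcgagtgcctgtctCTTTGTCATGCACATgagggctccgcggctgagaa
Sox2: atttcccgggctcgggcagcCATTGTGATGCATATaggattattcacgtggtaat
Ebf1: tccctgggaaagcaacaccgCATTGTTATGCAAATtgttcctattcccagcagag

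Other arrangements were an octamer without a composite at 2810432D09Rik (chr4:41654188-41654235, minus) and a PORE with the single change A13T at Unc5cl (chr17:48755732-48755786, plus). The composite with 4 free bases stood at Klf13 (chr7:71102110-71102167, plus), with the changes T3C and G5T. The same printed letters at Klf13 also meet the composite with 1 free base at 2 mismatches and the PORE at 1 mismatch. All of these share 1 exact octamer and are not separate elements.
2810432D09Rik: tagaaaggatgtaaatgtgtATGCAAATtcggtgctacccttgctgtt
Unc5cl: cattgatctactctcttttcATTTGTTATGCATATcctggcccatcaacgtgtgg
Klf13: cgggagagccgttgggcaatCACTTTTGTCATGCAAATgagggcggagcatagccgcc

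Several of the strongest peaks held none of the 5 elements, and their nearest matches are shown to make that class visible. Pou5f1 (chr17:35640974-35641028, minus) and Iqgap1 (chr7:87891477-87891531, minus) had a composite with 3 mismatches, A2T, A13T and A14C at Pou5f1 and A2T, C11T and A13C at Iqgap1. Rnf169 (chr7:107129003-107129054, minus) and Crlf2 (chr5:109987081-109987132, minus) had a MORE with 2 mismatches, which included C4A in both, with T12G at Rnf169 and T12A at Crlf2.
Pou5f1: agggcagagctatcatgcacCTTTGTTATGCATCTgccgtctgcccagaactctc
Iqgap1: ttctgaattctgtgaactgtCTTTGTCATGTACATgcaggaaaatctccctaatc
Rnf169: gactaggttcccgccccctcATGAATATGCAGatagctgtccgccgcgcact
Crlf2: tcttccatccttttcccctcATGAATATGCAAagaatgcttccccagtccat

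The signal of the strong shared peaks, which chose them and is given as a description, ran from 10 to 32.6 with a median of 12.3. It was at least 20 in 28 peaks, at least 15 in 78 and under 12 in 165. In the replicate 1 list the same regions had signals of 5.41 to 30.5 (median 9.33), and in the replicate 2 list of 12.1 to 65.8 (median 20.4). The scaling of the signal is not stated, so levels were not compared between lists. Over the 375 regions, Spearman's rho between the replicates was 0.558, a description of peaks that share 2 libraries. The regions were selected on a signal whose rho with the replicate signals was 0.734 and 0.876, which restricts the range over which the replicates are set side by side.

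**Figure D1:**
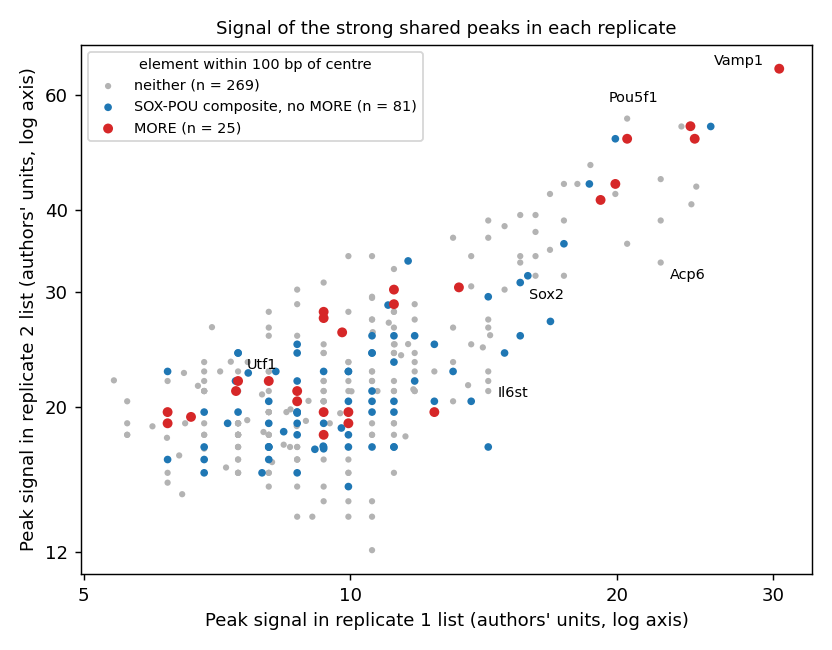
Signal of each of the 375 strong shared peaks in the replicate 1 list (x axis) and the replicate 2 list (y axis), both in the authors' units on log axes. Red points hold the MORE (n = 25), blue points the composite without the MORE (n = 81) and grey points neither (n = 269). Vamp1 is highest in both lists, while most points lie in a broad cloud with replicate 1 signals near the median of 9.33.

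The strong shared peaks were 335 to 3360 bp wide, with a median of 532 bp. Only 5 were wider than 900 bp. The widest (chromosome 14, 15184348 to 15187707, nearest start Il3ra) had a signal of 13.2 and ranked 129 among the strong shared peaks. The wide regions of Crlf2 (1179 bp), Gm4609 (1170 bp) and Zfp64 (1022 bp) were among the 30 strongest. Regions lay on all 20 chromosomes listed, most on chromosomes 2 (45 of 416 peaks, 10.8%) and 5 (38 of 367, 10.4%), and 2 of 84 (2.38%) on the X chromosome.

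The rule cuts a continuous range. Just inside lay the peaks nearest Car2 (signal 10) and Fam176a (10.01), and just outside were those nearest Terf1 and Fam126b (both 9.98). Another 834 peaks were in both replicate lists with a signal under 10. There were 388 peaks with a signal of at least 10. The 13 left out all lacked a peak in the replicate 1 list, and all 13 were in the replicate 2 list. The lists differ in size, with 1330 peaks for replicate 1 and 6324 for replicate 2, so absence from the replicate 1 list is common. The strongest of these lay nearest Eya4 (12.6), a transcriptional coactivator and phosphatase, and Olfr90 (11.4), an olfactory receptor.

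The region nearest Vamp1, which encodes a membrane protein of synaptic vesicle fusion, was first in the whole-series list and in both replicate lists, with signals of 32.6, 30.5 and 65.8. It lay 0.295 kb upstream of the start site. The region 16.7 kb upstream of Lmtk2, a membrane-anchored kinase gene, had 29.1 in the whole series, 24.2 in replicate 1 and 53.7 in replicate 2. A region 697 kb from Diap3, which encodes an actin-nucleating formin, had 28.5, 25.5 and 53.7 in the same order. All of these, which were picked for their whole-series signal, ranked among the first 6 in each replicate list.

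Rank 4 was held by the region 1.99 kb upstream of Pou5f1 itself, with 27.9 in the whole series, 20.5 in replicate 1 and 55.2 in replicate 2. The region of Rnf169, which encodes a ubiquitin-binding protein recruited to DNA breaks, lay 0.124 kb from the start site with 27.3, 23.6 and 53.7. That of Prr5, which encodes a subunit of the mTORC2 kinase complex, lay 47.4 kb upstream with 26.7, 20.5 and 51.4. The replicates placed these differently. Pou5f1 ranked 11 in replicate 1 and 2 in replicate 2, and Prr5 ranked 11 and 6.

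Other regions of the 30 strongest lay in introns of Gprc5b, an orphan receptor gene (26.1), Il11ra1, an interleukin 11 receptor gene with the start of 2810432D09Rik nearest (25.6), Iqgap1, a cytoskeletal scaffold gene (25.3), Rapgef1, an activator of small GTPases (22.6) and Abca4, a retinal lipid transporter gene with Gm4609 nearest (23.6). The introns of Lemd1 (nearest Gm10188, 22.1), Macrod1 (nearest Flrt1, 21.1), D430041D05Rik (20.6) and Rnf220, a ubiquitin ligase gene (19.97), held the others. Regions near starts belonged to Crlf2, the receptor chain for thymic stromal lymphopoietin (23.8), Rif1, a regulator of replication timing (22.9), Cnpy1 (22.6), Abcg1, a cholesterol transporter gene (20.6), and Acp6, a lysophosphatidic acid phosphatase gene (20.3). The intergenic ones lay nearest Grp, gastrin-releasing peptide (27.6), Ndufa4l2 (24.96), Unc5cl (23.8), Cyp7b1, an oxysterol hydroxylase gene (23.8), Traf3, a receptor adaptor gene (23.5), Col14a1, a collagen gene (23.5), Zfp64 (22.9), Samd13 (22.6), Msx3, a neural tube homeobox gene (20.3), and Galnt5 (19.97). Of the 30, 7 were at promoters, 9 in introns, 10 intergenic within 100 kb of a start and 4 beyond, and none was in an exon outside a promoter. None of these 30 had Nanog, Klf4 or Esrrb as its nearest gene.

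The strong shared peaks held the composite more often than the other peaks. It was present in 82 of 375 (21.9%, 95% Clopper-Pearson interval 17.8 to 26.4%) and in 602 of 5140 other peaks (11.7%, 10.8 to 12.6%), a difference of 10.2 percentage points (two-sided Fisher's exact test, adjusted p = 1.5e-06). Of the 16 motifs searched, 25% (4) were higher in the strong shared peaks by this test. In windows of the same length 2 kb from the same centres the composite stood in 1 of 375 (0.267%), and 31.2% of the motifs (5 of 16) were higher at the centre by exact McNemar tests. Against the 834 weaker peaks found in both replicate lists, of which 17.9% held it, the composite no longer differed beyond the threshold (difference 4 points, adjusted p = 0.364, Fisher's exact test). Nor did it among the 78 regions with a signal of at least 15, of which 17.9% held it against 12.3% of the remaining peaks (adjusted p = 0.869, Fisher's exact test).

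The MORE stood in 25 strong shared peaks (6.67%, 4.36 to 9.68%), in 2.06% of the other peaks (adjusted p = 1.4e-05, Fisher's exact test) and in none of the 375 windows 2 kb away, which allows a share of up to 0.8%. It was also more frequent than in the weaker peaks found in both replicate lists, 2.4% of which held it (adjusted p = 0.0125, Fisher's exact test). With no mismatch allowed the MORE was in 3 of 375 (0.8%) against 0.272% and the difference did not pass (adjusted p = 0.278, Fisher's exact test). With up to 2 mismatches the shares were 17.6% and 7.49%. In 20 of the 25 it was the single element found, and 1 of the 25 also held a composite.

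Most of these were the 12 bases with C4A printed above for Vamp1, Lmtk2, Prr5 and Traf3. They stood in 14 strong shared peaks (3.73%), in 42 of the 5140 other peaks (0.817%) and in no window 2 kb from a strong shared peak, a description of letters that were singled out after they had been seen. Among the 28 regions with a signal of at least 20, 5 (17.9%) held them, at Vamp1, Lmtk2, Grp, Prr5 and Traf3. Weaker regions with the same letters lay nearest Tspan11 (17.0), Kat2b, a histone acetyltransferase gene (16.4), Galnt9 (14.7), Bpifb9a (14.2), Ryr2 and Zdhhc13 (both 12.04), Bpifb9b (11.98), Mphosph6 (10.9) and Itih5 (10.6). The Bpifb9a and Bpifb9b regions are 2 copies of 1 sequence, as given further on, and are not separate instances.

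The PORE stood in 69 strong shared peaks (18.4%) and 10.6% of the other peaks (adjusted p = 9.3e-05, Fisher's exact test), and in 12.1% of the weaker peaks found in both lists (adjusted p = 0.0337, Fisher's exact test). At a signal of at least 15 the shares were 19.2% and 11%, and the difference did not pass (adjusted p = 0.229, Fisher's exact test). The overlap with the composite was large: 41 regions held both, which is 41 of 69 with the PORE and 41 of 82 with the composite. Among the 79 PORE sites within 250 bp of a centre, the first letter was the searched A in 20. It was C, the first letter of the composite, in 32. The PORE counts are therefore not independent of the composite counts. The first free base of the PORE was T, the sixth letter of the composite, in 58 of the 79. Without a composite or an octamer, 26 regions (6.93%) held the PORE, as did 212 of 5140 other peaks (4.12%, Fisher's exact test, unadjusted p = 0.0167). These 26 are not free of looser composites, since regions such as those of Unc5cl and Sall1 held a composite with 3 mismatches.

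The exact octamer was in 57 strong shared peaks (15.2%, 11.7 to 19.2%) and 13.3% of the other peaks, a difference that did not pass (adjusted p = 0.599, Fisher's exact test). It stood in 1.07% of the windows 2 kb away (exact McNemar test, adjusted p = 6.3e-13). With 1 mismatch allowed its shares were 62.9% and 53.1% (adjusted p = 0.000837, Fisher's exact test). Of the 57 regions with an octamer, 31 also held a composite. The composite with 4 free bases stood in 4 regions (1.07%) and 1.5% of the other peaks, and 3 of the 4 also held the composite with 1 free base.

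The heptamer CATTGTT, a SOX site, was in 43 strong shared peaks (11.5%) and 6.4% of the other peaks (adjusted p = 0.00225, Fisher's exact test). This difference fell short of the threshold against the weaker peaks found in both lists (8.51%, adjusted p = 0.364) and, at a signal of at least 15, in the stronger regions alone (7.69%, adjusted p = 0.963, Fisher's exact test).

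Motifs of other factors of embryonic stem cells did not differ beyond the threshold. That of the nuclear receptor ESRRB, TCAAGGTCA, stood in 9 regions (2.4%) and 1.3% of the other peaks (Fisher's exact test, adjusted p = 0.27). The KLF motif GGGTGTGG was in 1.6% and 2.51% (adjusted p = 0.599), and the STAT motif TTCCNGGAA, read downstream of the cytokine LIF, in 1.07% and 1.01% (Fisher's exact test, adjusted p = 0.843). TFCP2L1 (CCAG, 6 free bases, CCAG) was in 1.87% and 2.74%, and the ZIC motif CCTGCTG in 9.33% and 9.26%. CTCF (CCACNAGG followed directly by GGGC, up to 1 mismatch) was in 5 regions (1.33%) and 0.447% of the other peaks (Fisher's exact test, unadjusted p = 0.038, adjusted p = 0.122). The TEAD motif CATTCCA stood in 4.8% of the strong shared peaks, the GATA motif AGATAAG in 2.13%, the E-box CACGTG in 1.07% and the NFY motif AGCCAAT in 2.4%, and none of these passed. The tests were adjusted over the 16 motifs. A p that misses the threshold does not show that shares were equal.

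**Figure D2:**
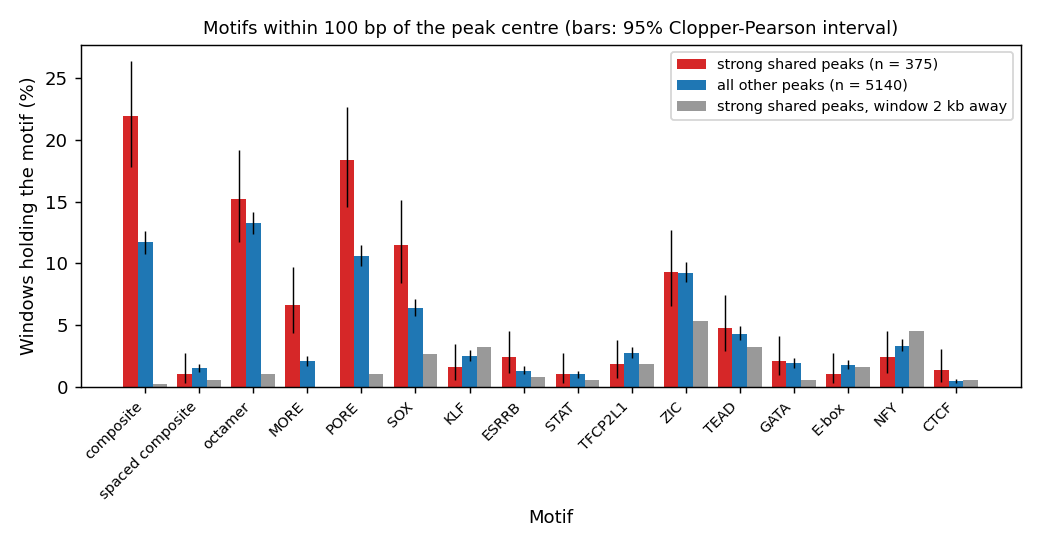
Share of windows within 100 bp of the peak centre that hold each of the 16 motifs (y axis, percent). Red bars are the 375 strong shared peaks, blue bars the 5140 other peaks, grey bars windows 2 kb from the strong shared peaks, and lines are 95% Clopper-Pearson intervals. The composite (21.9% against 11.7%), MORE, PORE and SOX bars are higher in red than in blue, and the octamer bars (15.2% and 13.3%) have overlapping intervals.

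Within the strong shared peaks the elements followed the order of signal differently, which is given as a description. The MORE was in 13.3% of the 75 strongest regions and 4% of the 75 weakest, and with up to 2 mismatches in 30.7% and 9.33%. The composite was in 18.7% of the 75 strongest, 29.3% of those ranked 226 to 300 and 16% of the 75 weakest. The octamer ranged from 12% to 18.7% and the PORE from 16% to 20% over the same groups of 75. Median signals were 13.5 for regions with the MORE, 12.3 for those with the composite and 12 for those with no element. In the replicate 2 list the medians were 21.9, 20.4 and 20.4.

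**Figure D3:**
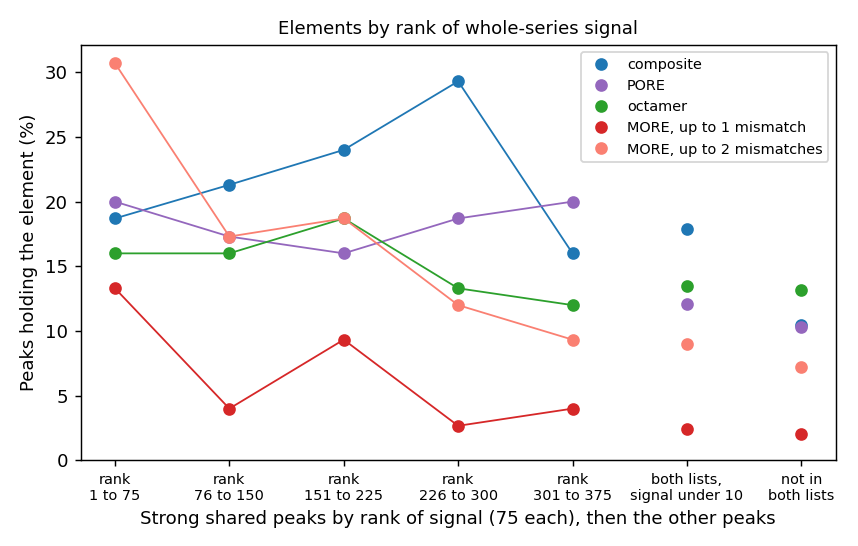
Share of peaks holding each element (y axis, percent) in the strong shared peaks divided by rank of whole-series signal into groups of 75, then in the 834 weaker peaks of both lists and the peaks not in both. Points are shares and carry no replicate error. The MORE with up to 2 mismatches is highest in ranks 1 to 75 (30.7%) and the composite in ranks 226 to 300 (29.3%).

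The elements lay close to the peak centres, with no position used in the rule. Searched over 250 bp on each side, the nearest MORE was at a median of 13.5 bp from the centre, and 25 of 27 were within 50 bp. The composite was at a median of 26.5 bp, with 65 of 92 within 50 bp, the octamer at 28 bp (44 of 66) and the PORE at 30 bp (56 of 79). At Gm10188, the only region of the 30 strongest with an exact MORE, it was 1.5 bp from the centre. At Vamp1 the MORE lay 38.5 bp from it.

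**Figure D4:**
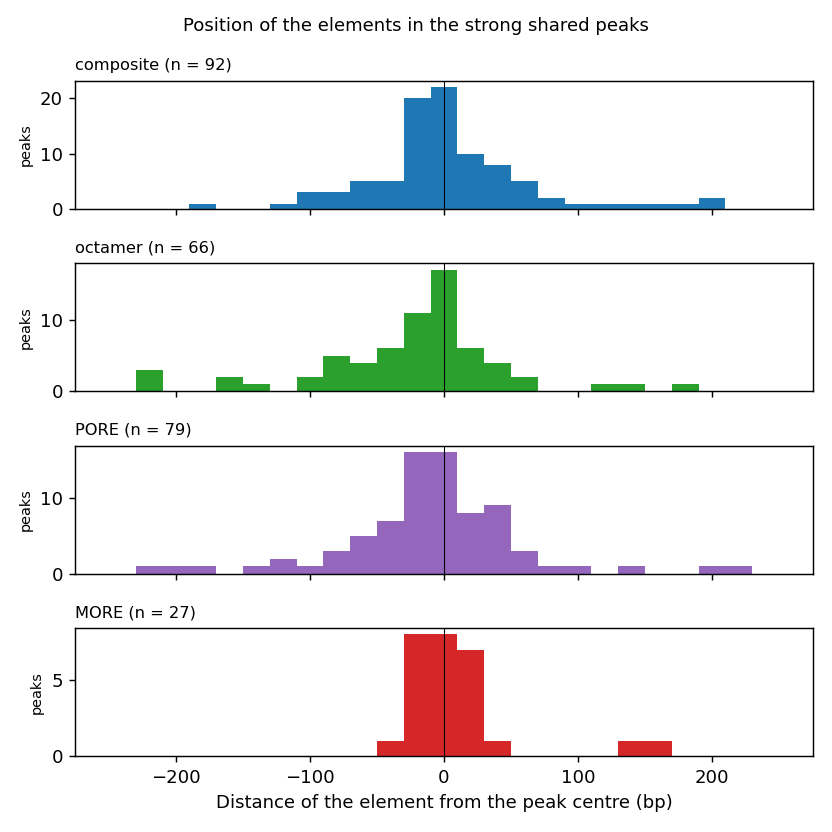
Distance from the peak centre in bp (x axis) of the nearest composite (n = 92), octamer (n = 66), PORE (n = 79) and MORE (n = 27) within 250 bp, with the number of strong shared peaks in bins of 20 bp (y axis). All of them gather at the centre, and the MORE has 25 of 27 within 50 bp.

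At least 1 of the 5 POU elements stood in 155 regions (41.3%, 36.3 to 46.5%) and in 27.2% of the other peaks, and 220 regions held none. Looser matches were common among the 220. A composite with 3 mismatches was in 78 (35.5%) and an octamer with 1 mismatch in 89 (40.5%). A MORE with 2 mismatches was in 30 (13.6%) and a PORE with 3 mismatches in 60 (27.3%). Matches up to these limits stood in 37.7%, 53.1%, 7.49% and 34.2% of all other peaks, in the same order. Those shares include peaks with closer matches, so they are not a like comparison, and the counts say little about the 220. In 71 of the 220 (32.3%) not even these were found. Of the 30 strongest regions, 15 held no element, among them Pou5f1, Rnf169, Iqgap1, Cyp7b1 and Crlf2.

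Short words at the joints of the elements were counted after the sequences had been seen, so they are a description. TATGCA, the start of the octamer with a T before it, was in 48.5% of the strong shared peaks, 28.7% of the other peaks and 10.1% of the windows 2 kb away, and in 69.3% of the 75 strongest. TGTTATGC, the joint of the SOX and POU sites with T as the free base, was in 18.7%, 5.84% and 0.267%, and TGTCATGC, with C, in 11.2%, 3.77% and 0.533%. Of the 220 regions with none of the 5 elements, 37 (16.8%) held TGTTATGC and 19 (8.64%) held TGTCATGC. Which regions count as holding no element therefore depends on the mismatches allowed. The palindrome ATGCGCAT was in 20 regions (5.33%) and 3.33% of the other peaks, and 19 of the 20 held none of the 5 elements. It stood in no window 2 kb away.

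Most strong shared peaks lay outside promoters, in introns or between genes. Of the regions, 29 (7.73%) had their centre within 1 kb of a protein-coding start site, which is called a promoter here, 4 (1.07%) were in an exon, 134 (35.7%) in an intron, 144 (38.4%) intergenic within 100 kb of a start and 64 (17.1%) farther away. In the other peaks the shares were 7.14%, 1.89%, 34.1%, 39.9% and 17%. None of the 5 classes, 0%, differed beyond the threshold by Fisher's exact test (adjusted p from 0.848 to 0.943), and none had an unadjusted p under 0.05. The difference at promoters was 0.593 points, and it was -1 points when starts of all annotated genes were used (9.6% and 10.6%, Fisher's exact test, adjusted p = 0.752). Among regions with a signal of at least 15, 14.1% were at promoters against 7.08% of the remaining peaks, a difference that did not pass either (adjusted p = 0.127, Fisher's exact test).

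Distances from the centre to the closest protein-coding start had a median of 24.7 kb, and of 26.4 kb in the other peaks. Of the regions, 184 (49.1%) lay upstream of that start. Of the 134 intronic regions, 108 (80.6%) were in the gene whose start was nearest. Where they were not, the nearest start named here belongs to a neighbour. The nearest genes numbered 362, and 13 genes were nearest to 2 regions each. They included Sox2 (19.1 and 11.2), Lefty1 (19.4 and 11.2), Kat2b (16.4 and 13.8), Klf6 (14.2 and 10.9), Ebf1, a B-cell transcription factor gene (14.4 and 12.3), Wbscr17 (18.8 and 12.3) and Cnpy1 (22.6 and 11.2).

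Promoter regions had more G and C within 100 bp of the centre, with a median of 52.7% against 45.8% in the regions elsewhere. Of the 29 at promoters, 20 held no POU element (69%), and of the 346 elsewhere 200 (57.8%) held none. They included Zfp384 and Ell (both 19.4), an elongation factor gene, 4930522L14Rik (18.5), Ebi3, a cytokine subunit gene (16.4), Wwtr1, which encodes the Hippo pathway coactivator TAZ (13.5), and Hk2, hexokinase 2 (11.4), none of which held an element. Nrarp, a Notch regulator gene (10.6), held a composite with 1 mismatch, and the centre of its region lay 0.098 kb from the start. These 7 were named after their values were seen.

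Genes with a start within 50 kb of a strong shared peak were counted in 20 lists. The background is 502 of 22232 protein-coding genes, 2.26%. Near any whole-series peak were 26.3% of protein-coding genes, 84% of the pluripotency regulators and 82.8% of the embryonic stem cell genes. Closeness to these 2 lists was therefore also seen in the whole peak list and is not particular to the strong shared peaks. The lists were written with earlier results of these data known, and the list of membrane traffic and actin genes and that of replication and repair genes hold genes picked for that reason. Their counts are therefore descriptions, with no test.

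Of 25 pluripotency regulators 4 (16%) were near a strong shared peak, Pou5f1, Rif1, Sox2 and Sall1. Sox2, which encodes the partner of POU5F1 at the composite, had its strongest region 3.91 kb from its start, with a signal of 19.1 in the whole series, 15.6 in replicate 1 and 30.99 in replicate 2. Rif1 had 22.9, 19.9 and 42.3 at 0.575 kb upstream. Sall1, a zinc finger repressor gene, had 14.5, 13.6 and 21.6 at 40.5 kb. At Rif1 and Pou5f1 no element passed, at Sox2 a composite with 1 mismatch stood 11 bp from the centre, inside the annotated non-coding gene Sox2ot, and at Sall1 a PORE was found.

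The other 21 regulators missed the rule in different ways. Trp53 (9.98), Nanog, a homeobox regulator (9.96), and Etv5 (9.47) had a peak in both replicate lists just under the signal of 10. Esrrb (7.93) and Tcfcp2l1 (7.34) were also in both lists. Klf2 (8.81), Zscan10 (8.22), Tet1 (6.75), Klf5 and Tbx3 (both 6.17) had their strongest peak in the replicate 2 list alone. So did Nr0b1 (5.91), Mycn (5.58), Sall4 (4.99), Prdm14 (4.82) and Nr5a2 (4.7). The strongest peaks of Myc (5.58) and Gbx2 (3.82) were in neither replicate list. Beyond 50 kb, a strong shared peak with a composite (12.6) had Nr5a2 as its nearest gene, at 418 kb. Klf4, Lin28a, Thap11 and Zfp42 had no whole-series peak within 50 kb.

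Of 29 further genes active in embryonic stem cells 8 (27.6%) were near a strong shared peak, at 9 separate regions. Lefty1 and Lefty2 encode secreted inhibitors of Nodal and had 3 regions around them. The strongest lay 1.14 kb upstream of Lefty1, with 19.4 in the whole series, 16.2 in replicate 1 and 31.7 in replicate 2. Another lay 4.27 kb upstream of Lefty2 and held a PORE (11.2, 6.22 and 21.9 in the same order), and one lay 10.1 kb upstream of Lefty1 (11.2, 6.84 and 21.2). The first was the highest of the 3 in each list. Jarid2, a Polycomb cofactor gene, had 16.4, 11.1 and 26.9 at 23.9 kb, where an exact octamer lay 1.5 bp from the centre. Jam2, a junction adhesion molecule gene, had 14.1, 14.3 and 21.2. The others were Utf1, a chromatin protein gene, with a composite of 2 mismatches (13.8), Gdf3 with a region in its intron (12.3), Dppa3 with a region 1.8 kb upstream that held a composite, an octamer and a PORE (12.04), and Dppa5a (10.3). Among these, 2 regions had more than 14 in replicate 1, those of Lefty1 and Jam2.

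The Nodal, TGF-beta and BMP list had 5 of 23 genes (21.7%) at 6 regions. Besides the 2 Lefty genes with their 3 regions these were Skil, a repressor of SMAD signalling (18.2), Inhbb, an activin subunit gene (12.04), and Id3, a BMP target (11.2). The region counted for Inhbb lay 31.6 kb from the Inhbb start, with the start of Ralb nearest. Of 22 Polycomb genes 3 (13.6%) were counted, Jarid2, Mtf2 (14.7 in an intron) and Bmi1 (10.6), and Bmi1 had only 5.6 in replicate 1.

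Single genes were near a strong shared peak in 6 lists. They were Il6st, the gp130 receptor subunit that carries the LIF signal (13.2, with an exact octamer), Tcf7, a Wnt pathway transcription factor gene (10.9, with a composite of 1 mismatch), Ehmt1, an H3K9 methyltransferase gene (17.0), Egr1, an immediate early gene (11.4), Chd1, a remodeller gene (10.6), and Hhex, an endoderm homeobox gene (11.8). The region counted for Egr1 lay 45.7 kb from the Egr1 start, in a Kdm3b intron with the start of Reep2 nearest. Il6st had 14.3 in replicate 1 and 21.9 in replicate 2, and Tcf7 had 11.2 and 17.4. With lists of 16 to 25 genes, 1 gene is 4% to 6.25%, so these counts say little against 2.26%.

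Of the lineage lists, mesoderm had 2 of 24, Cdx4 (12.04, at 20.5 kb with Chic1 nearest) and the muscle determination gene Myf5 (10.6). Neuroectoderm had 2 of 22, Rax through the Grp region at 45.7 kb and En2 through the Cnpy1 region at 44.4 kb. None of the Hox genes (0 of 24), trophectoderm genes (0 of 20), primed and formative epiblast genes (0 of 15), feeder fibroblast genes (0 of 20) or terminal somatic genes (0 of 33) was near a strong shared peak. At a background of 2.26%, a count of 0 in lists of this size says little. Near any whole-series peak were 79.2%, 35%, 60%, 20% and 24.2% of these lists in the same order, against 26.3% of protein-coding genes. Of 30 ribosomal and housekeeping genes 2 were counted, Gapdh, 48.8 kb from the Vamp1 region, and Rpl7, through a region in an Rdh10 intron. Membrane traffic and actin genes had 3 of 27 (Vamp1, Lmtk2 and Prr5) and replication and repair genes 3 of 26 (Rnf169, Rif1 and Trp53bp1, the 53BP1 gene, with 10.9).

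**Figure D5:**
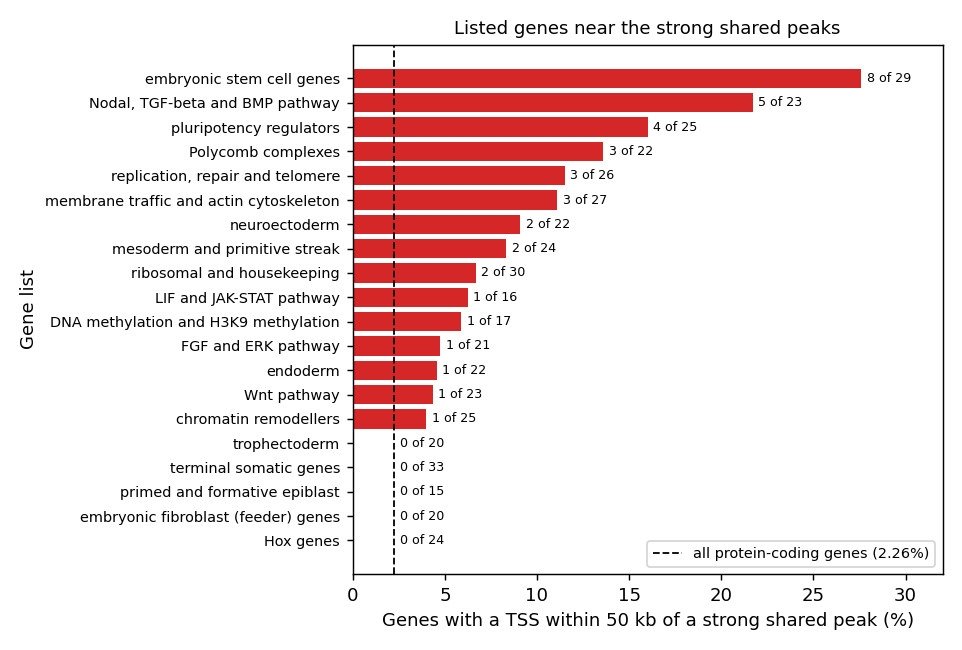
Share of the genes of each list with a start site within 50 kb of a strong shared peak (x axis, percent), with the number of genes beside each bar. The dashed line is the share of all protein-coding genes, 2.26%. Embryonic stem cell genes (8 of 29), Nodal, TGF-beta and BMP genes (5 of 23) and pluripotency regulators (4 of 25) have the longest bars, and 5 lists have 0.

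Repeated sequence was less frequent under the strong shared peaks. In 19 of 375 (5.07%) the words of 32 bases around the centre occurred, at their median, more than once in the genome, and in 14.8% of the other peaks. Copy numbers above 10 were found in 4 regions (1.07%) and 7.65% of the other peaks. With all such peaks left out, the composite (23% against 13.4%, adjusted p = 3.8e-05), MORE (6.46% against 2.4%, adjusted p = 0.000765) and PORE (19.1% against 11.8%, adjusted p = 0.000765) stayed higher by Fisher's exact test, and the SOX heptamer no longer passed (10.4% against 7.31%, adjusted p = 0.148).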

How the data were processed

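POU5F1 ChIP-seq peaks of 2 biological replicates were used. The mm9 lists deposited by the authors give for each peak a signal, whose scaling is not stated, a −log10 p-value, none below 5, and a q-value, which was not used. How the replicates were combined in the whole-series list, the aligner and the peak caller are not given in the sources used here. No counts were used, so depth is unknown. The lists deposited on mm10 were not used here.

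The members and gene lists were chosen with earlier results of these data known. Sequence came from NCBIM37 (mm9) and genes from GENCODE M1, with 464 of 465 list entries matched, 4 through an older name. The scanner recovered every exact copy of the composite, the MORE and the KLF motif planted in simulated data. Copies with mismatches and the other motifs were not planted. Motif and location shares were compared with the other peaks by two-sided Fisher's exact tests, and with windows 2 kb away by exact McNemar tests, in scipy 1.17.1, with Benjamini-Hochberg adjustment over 16 motifs or 5 classes and a threshold of 0.05. Peaks are not replicates, and p-values and Clopper-Pearson intervals describe these lists only.

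Named genes were those nearest the 30 strongest regions, up to 4 per gene list and all pluripotency regulators near a region, and the 5 strongest regions with each element or with none. Other genes and regions in the text were named after their values were seen. Alternatives were the window, mismatches, signal threshold, overlap, comparison set, replicate lists, clusters, promoter and gene distance. Those without repeated or wide peaks were added after seeing the data.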

Additional observations from a re-analysis of the deposited data

How the results depend on the processing

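Each value of the whole-series list has no replicate error, and depth, which limits weak peaks most, is unknown. Against other peaks in both replicate lists, 2 motifs were higher in place of 4, with differences of 4 points for the composite and 2.95 for the SOX heptamer (Fisher's exact test, adjusted p = 0.364 for both). At a signal of at least 15 (78 regions), 1 motif was higher, the MORE (10.6 points, Fisher's exact test, adjusted p = 0.000207), with 5.63 points for the composite (adjusted p = 0.869), 8.23 for the PORE (0.229) and 0.961 for the SOX heptamer (0.963), while 3 embryonic stem cell genes and 129 protein-coding genes were near a region. At a signal of at least 8 (727 regions), 7 pluripotency regulators and 967 protein-coding genes were near one. With starts within 10 kb and 100 kb, 129 and 928 genes were counted.

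The SOX difference was 2.81 points in windows of 50 bp on each side (Fisher's exact test, adjusted p = 0.0536), 3.76 in windows of 250 bp (0.0837) and 3.09 without repeated sequence (0.148). The MORE with no mismatch differed by 0.528 points (Fisher's exact test, adjusted p = 0.278) and the octamer with 1 mismatch by 9.88 (0.000837). The promoter difference was -1 points with starts of all annotated genes (0.752). At a signal of at least 15 fewer regions enter, and the shares of the composite (17.9%) and the SOX heptamer (7.69%) were also lower than over the 375 (21.9% and 11.5%). The share of the MORE was higher (12.8% and 6.67%). The cause of these changes, and of the others given here, was not tested.

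Requiring the replicate 1 list alone left the same 375 regions, and the replicate 2 list alone gave 388. Over these, composite differences were 9.39 to 10.2 points, MORE 4.6 to 4.93, PORE 7.17 to 7.82, SOX 5.07 to 5.22, octamer 1.65 to 1.91 and promoter 0.593, with 502 to 524 genes near a region. The counts of higher motifs (4 and 5) and of pluripotency regulators (4) and embryonic stem cell genes (8) were the same in both. The motif count against windows 2 kb away stayed within 1.5 times of 5 under the 19 alternatives. It uses the strong shared peaks only, so alternatives that change just the comparison set could not move it. Nor could requiring the replicate 1 list alone, which left the same regions. No paired analysis was possible because there is 1 group.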

Other observations

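A strong shared peak lay beside the miR-290 to miR-295 cluster, microRNAs typical of mouse embryonic stem cells. It is at chromosome 7, 3213486 to 3214042, 4.86 kb from Mir290 and 7.01 kb from Mir295, with a signal of 10.7 in the whole series, 8.16 in replicate 1 and 16.5 in replicate 2, and it held an exact octamer 45.5 bp from its centre. The nearest protein-coding start is that of Nlrp12, so the cluster does not appear among the nearest genes. Mir296 and Mir298, at 5.55 and 6.01 kb, lay beside a region near Gnas (10.9).

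Some strong shared peaks are copies of 1 sequence. The regions of Bpifb9a (14.2) and Bpifb9b (11.98), 49.4 kb apart on chromosome 2, shared 96.5% of the 32-base words around their centres and held the same MORE with C4A. Those nearest BC005561 (12.3) and Gm8258 (13.8), 52.9 kb apart on chromosome 5, shared 90.6%. A group of 3 on chromosome 14, nearest Rps19-ps2, Gm10905 and B230359F08Rik, shared 47.1% to 77.1%. The sources used here do not say how reads that match several copies were placed.

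Of the 13 regions with a signal of at least 10 that the replicate 1 list lacked, those nearest Lemd3 (10.6) and Blcap (10.3) held a MORE and that nearest Inhbb (10.3) an octamer.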
